A study of Mus musculus with 8 samples.

Results

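The genes examined here encode 7 subunits of the GABA-A receptor, the chloride channel that carries most fast inhibition in the brain. They are the alpha subunit genes Gabra2, Gabra3, Gabra4 and Gabra5, the beta subunit genes Gabrb1 and Gabrb2, and the delta subunit gene Gabrd. They were taken by symbol from the 32285 genes in the files, by a rule that uses no measured value, although earlier results of these data were known when they were chosen, and 12 other GABA-A subunit genes in the files served for comparison.

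Single-nucleus RNA was measured in the anterior hippocampus and the caudate putamen (the dorsal striatum) of untreated C57BL/6JN mice, an inbred strain, aged 3 months (young) or 21 months (old). Each of the 4 groups, young and old hippocampus and young and old caudate putamen, holds 2 libraries, numbered 1 and 2 as in the labels. Every library mixed equal numbers of nuclei of 1 male and 1 female. The sexes were not told apart here, and a library, not a mouse or a nucleus, was the replicate. Values are therefore given in the order young 1, young 2, old 1, old 2.

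The 8 libraries held 67205436 to 234811422 UMIs (unique molecular identifiers, each marking 1 captured RNA molecule), with a median of 6664 to 11275 per retained nucleus, and at most 0.774% of a library's barcodes also occurred in another library. Clustering without the 19 GABA-A subunit genes gave 29 classes with at least 5 nuclei in every library, from 97740 nuclei. Names are by marker genes and mean that a class resembled the named type. In 26 of the 29 classes the class's own marker list had its highest summed level of the region in that class, and no marker of a class was at 0 in all of its libraries. The exceptions were CA3 (highest in mossy cells), D1 medium spiny neurons (highest in oligodendrocyte precursor cells) and the remaining caudate putamen interneurons (highest in Pvalb Pthlh interneurons). Classes with at least 20 nuclei in each library were tested.

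A GABA-A receptor is a ring of subunits in which alpha and beta subunits form the binding site for GABA, and a gamma or a delta subunit usually completes the ring. Receptors with alpha2 or alpha3 and a gamma subunit are typical of synapses, whereas alpha4 with delta, and alpha5, are known for receptors outside synapses that carry a slow, tonic current. In the dentate gyrus and in striatal medium spiny neurons alpha4 and delta are well-known partners, and alpha5 is known from hippocampal pyramidal neurons. Nuclear RNA says nothing on which subunits assemble.

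Of the members, 3 lie in a receptor gene cluster of chromosome 5 (GRCm38). Gabra2 spans chr5:70957597-71095849 on the minus strand, Gabra4 chr5:71569749-71658308 on the minus strand and Gabrb1 chr5:71658113-72149037 on the plus strand. Gabra5 lies at chr7:57407672-57510059 (minus), Gabrb2 at chr11:42419757-42629028 (plus), Gabrd at chr4:155384980-155398112 (minus) and Gabra3 at chrX:72432681-72656848 (minus). Gabra4 and Gabrb1 run in opposite directions and their 5′ ends overlap by 196 bases. Part of Gabra5 also overlaps annotation of the opposite strand. The sources used here do not state whether counting used strand, so reads from such stretches cannot be assigned with certainty.

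RefSeq start windows (GRCm38.p6, 250 bases before to 50 after a start) were found for 6 of the 7 genes. Those of Gabra4 and Gabrb1 are shown because the starts of these neighbours lie 387 bases apart, and that of Gabra3 because this gene had the widest ratio between its highest and lowest neuron class, as described below. Each is written 5′ to 3′ on its gene's strand, with capitals for matches, on either strand, to the GC box with letters GGGCGG, the CAAT box with letters CCAAT or the TATA box with letters TATAAA. The first lies at chr5:71658259-71658558 (minus), the second, the first of 2 Gabrb1 windows, at chr5:71657671-71657970 (plus) and the third, the first of 2 Gabra3 windows, at chrX:72656870-72657169 (minus).
Gabra4: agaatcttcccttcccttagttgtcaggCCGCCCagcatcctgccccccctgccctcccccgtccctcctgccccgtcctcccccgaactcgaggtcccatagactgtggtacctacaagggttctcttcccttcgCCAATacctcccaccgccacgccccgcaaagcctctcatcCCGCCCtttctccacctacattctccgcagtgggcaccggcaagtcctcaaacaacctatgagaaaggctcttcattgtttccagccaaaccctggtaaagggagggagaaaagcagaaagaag
Gabrb1: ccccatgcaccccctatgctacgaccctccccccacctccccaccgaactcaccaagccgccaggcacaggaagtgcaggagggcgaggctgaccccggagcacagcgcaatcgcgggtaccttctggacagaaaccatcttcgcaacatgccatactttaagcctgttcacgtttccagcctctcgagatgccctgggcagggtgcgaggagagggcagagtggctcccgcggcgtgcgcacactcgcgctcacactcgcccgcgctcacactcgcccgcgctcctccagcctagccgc
Gabra3: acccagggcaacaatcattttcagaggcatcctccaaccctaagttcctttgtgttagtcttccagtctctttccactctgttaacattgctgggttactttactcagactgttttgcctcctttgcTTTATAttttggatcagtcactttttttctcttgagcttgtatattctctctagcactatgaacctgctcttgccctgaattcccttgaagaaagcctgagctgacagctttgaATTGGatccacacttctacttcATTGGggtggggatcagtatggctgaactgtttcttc
The Gabra4 window held 2 GC boxes and 1 CAAT box, the Gabrb1 window none of the searched motifs, and the Gabra3 window 2 CAAT boxes and 1 TATA box, with no match overlapping another. The bases TGACG and CAGCTG were searched as well and were absent from all 3. Among all 32851 windows, 35.7% held GGGCGG, 37.4% CCAAT, 13.6% TATAAA, 20.8% TGACG and 16.3% CAGCTG. The G and C content was 58.7% for Gabra4, 66% for Gabrb1 and 43% for Gabra3, against a median of 52.7% over all windows, and the Gabra3 window had 0 CpG dinucleotides where that of Gabrb1 had 25. The other Gabrb1 window, not shown, had a G and C content of 50.3% and 9 CpG dinucleotides, and the other Gabra3 window 39.3% and 0.

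Levels are given as CPM, UMIs of a gene per 1000000 UMIs of a class in a library. Over the classes tested, each gene had its own order, and of 147 neighbouring pairs of classes in these orders 36 had library ranges that did not overlap. Because longer genes yield more nuclear RNA counts, levels of different genes were compared only as CPM per kb of gene span.

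Gabra2, an alpha subunit known from synapses at the axon initial segment, was highest in dentate granule neurons, at 760, 771, 746 and 722 CPM. Within the hippocampus, CA1 neurons (540, 601, 498 and 504 CPM), CA3 neurons (472, 549, 544 and 480 CPM) and astrocytes (472, 487, 523 and 482 CPM) followed and overlapped one another. All 4 dentate granule values lay above these, and hippocampal interneurons lay well below them at 181, 216, 175 and 177 CPM. In the caudate putamen the Sst Npy interneurons (470, 583, 581 and 539 CPM) overlapped the eccentric medium spiny neurons (495, 500, 480 and 505 CPM), a small population that expresses markers apart from the D1 and D2 types. D1 medium spiny neurons, of the direct pathway, had 439, 424, 434 and 395 CPM and D2 medium spiny neurons, of the indirect pathway, 447, 439, 454 and 417 CPM. These overlapped each other and lay above Pvalb Pthlh interneurons, at 207, 209, 240 and 238 CPM.

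Gabra3, an alpha subunit common in monoaminergic and some inhibitory neurons, had the most selective pattern. It was near 0 in dentate granule neurons (0.722, 1.39, 0.849 and 0.76 CPM, from 27 to 140 UMIs) and low in CA3 neurons (6.27, 2.68, 0 and 0.804 CPM). CA1 neurons had 30.8, 35.3, 25 and 31.8 CPM and hippocampal interneurons 73.6, 47.8, 51.2 and 67.6 CPM, each class above the previous without overlap. Subicular or cortical excitatory neurons had the most of the tested hippocampal neurons, 87.4, 71.7, 103 and 87.5 CPM, and overlapped the interneurons. D1 medium spiny neurons of the caudate putamen had 2.1, 2.13, 5.05 and 4.08 CPM, D2 medium spiny neurons 18, 18, 25 and 19.3 CPM, and eccentric medium spiny neurons 120, 107, 125 and 93.1 CPM. Each tested interneuron class of the caudate putamen was high, with 69.3, 70.5, 66.7 and 62.7 CPM in Pvalb Pthlh, 86.3, 92.3, 86.9 and 82.6 CPM in Sst Npy and 94.5, 124, 131 and 104 CPM in the remaining interneurons. Oligodendrocyte precursor cells, which receive GABA synapses from interneurons, stood out among the glia: they had 74.5, 82.8, 67.1 and 107 CPM in the hippocampus and 76.1, 87.7, 81.6 and 46.4 CPM in the caudate putamen. The latter lay below the remaining interneurons in every library.

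Gabra4, the usual alpha partner of delta, was highest in the classes known for tonic inhibition. It reached 272, 264, 291 and 278 CPM in dentate granule neurons, against 94.8, 91.9, 134 and 107 CPM in CA1 neurons and 77.4, 76.8, 82.8 and 80.7 CPM in hippocampal interneurons. D1 medium spiny neurons had 332, 362, 285 and 295 CPM, D2 medium spiny neurons 361, 380, 311 and 314 CPM and eccentric medium spiny neurons 286, 287, 246 and 243 CPM. The D1 range overlapped both others, and every D2 library lay above every eccentric library. All tested interneuron classes of the caudate putamen lay below these 3, for example Sst Npy interneurons at 67.1, 47.1, 55.2 and 82.6 CPM.

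Gabra5, the alpha subunit known from tonic inhibition of pyramidal neurons, was led by CA3 (212, 210, 264 and 196 CPM) and CA1 neurons (184, 180, 206 and 191 CPM), whose ranges overlapped. Dentate granule neurons came next without overlap, at 138, 139, 139 and 133 CPM, and hippocampal interneurons had 46, 64.3, 60.3 and 49 CPM. No tested neuron class of the caudate putamen passed a mean of 31.6 CPM: the ranges of 5 classes overlapped, and Sst Npy interneurons lay below all of them at 8.22, 1.88, 8.28 and 4.64 CPM.

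Gabrb1, a beta subunit known from neurons and astrocytes, was highest in astrocytes. Hippocampal astrocytes had 4516, 4510, 4549 and 4193 CPM and those of the caudate putamen 4232, 4184, 4140 and 3408 CPM. Of the tested neurons, dentate granule neurons followed at 1438, 1406, 1440 and 1382 CPM, and all astrocyte libraries lay above every library of any neuron class tested. Hippocampal immature neurons, not tested, had more than dentate granule neurons, at 2748, 2142, 6426 and 4092 CPM. That class had 7 nuclei in old library 2, and astrocyte markers summed to 8487 CPM in it, against 15141 CPM in hippocampal astrocytes. In the caudate putamen Sst Npy interneurons (1201, 1160, 1207 and 944 CPM) and the remaining interneurons (1029, 1057, 1125 and 921 CPM) lay above D1 (644, 605, 669 and 563 CPM) and D2 medium spiny neurons (570, 551, 634 and 560 CPM). Pvalb Pthlh interneurons, at 285, 253, 327 and 261 CPM, were lowest of the neurons with the eccentric medium spiny neurons, at 303, 300, 290 and 298 CPM.

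Gabrb2, a beta subunit common in synaptic receptors, showed another order. Hippocampal interneurons led at 610, 625, 774 and 635 CPM, followed by dentate granule neurons at 459, 455, 467 and 465 CPM, CA1 neurons at 324, 325, 359 and 330 CPM and CA3 neurons at 158, 173, 179 and 155 CPM, with no overlap between these 4 classes. In the caudate putamen Pvalb Pthlh interneurons (324, 321, 324 and 360 CPM) overlapped D2 medium spiny neurons (300, 303, 329 and 311 CPM) and lay above D1 medium spiny neurons (297, 303, 318 and 289 CPM), which overlapped D2. Sst Npy interneurons had 93.1, 77.2, 67.6 and 84.5 CPM. Oligodendrocyte precursor cells were the glia with the most Gabrb2, at 186, 176, 222 and 158 CPM in the hippocampus.

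Gabrd, the delta subunit of tonic receptors, was higher in 4 neuron classes of the caudate putamen than in any library of a tested hippocampal class. Pvalb Pthlh interneurons had 92.4, 115, 98.5 and 94.3 CPM, D1 medium spiny neurons 98.7, 87.9, 86.1 and 85.5 CPM, D2 medium spiny neurons 91.7, 85.7, 84 and 81.2 CPM and eccentric medium spiny neurons 48.5, 51.2, 46.3 and 46.2 CPM. Sst Npy interneurons (12.3, 9.42, 12.4 and 12.1 CPM) and the remaining interneurons (11.5, 21, 6.44 and 19.2 CPM) lay below the dentate granule neurons. In the hippocampus the highest class, dentate granule neurons, had 31, 32.7, 30.5 and 31.4 CPM, followed by interneurons at 27.9, 23.1, 25.4 and 21.5 CPM. CA1 neurons, at 4.67, 6.36, 5.07 and 3.85 CPM, and CA3 neurons, at 0.672, 1.84, 0.869 and 0.804 CPM, had little.

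**Figure D1:**
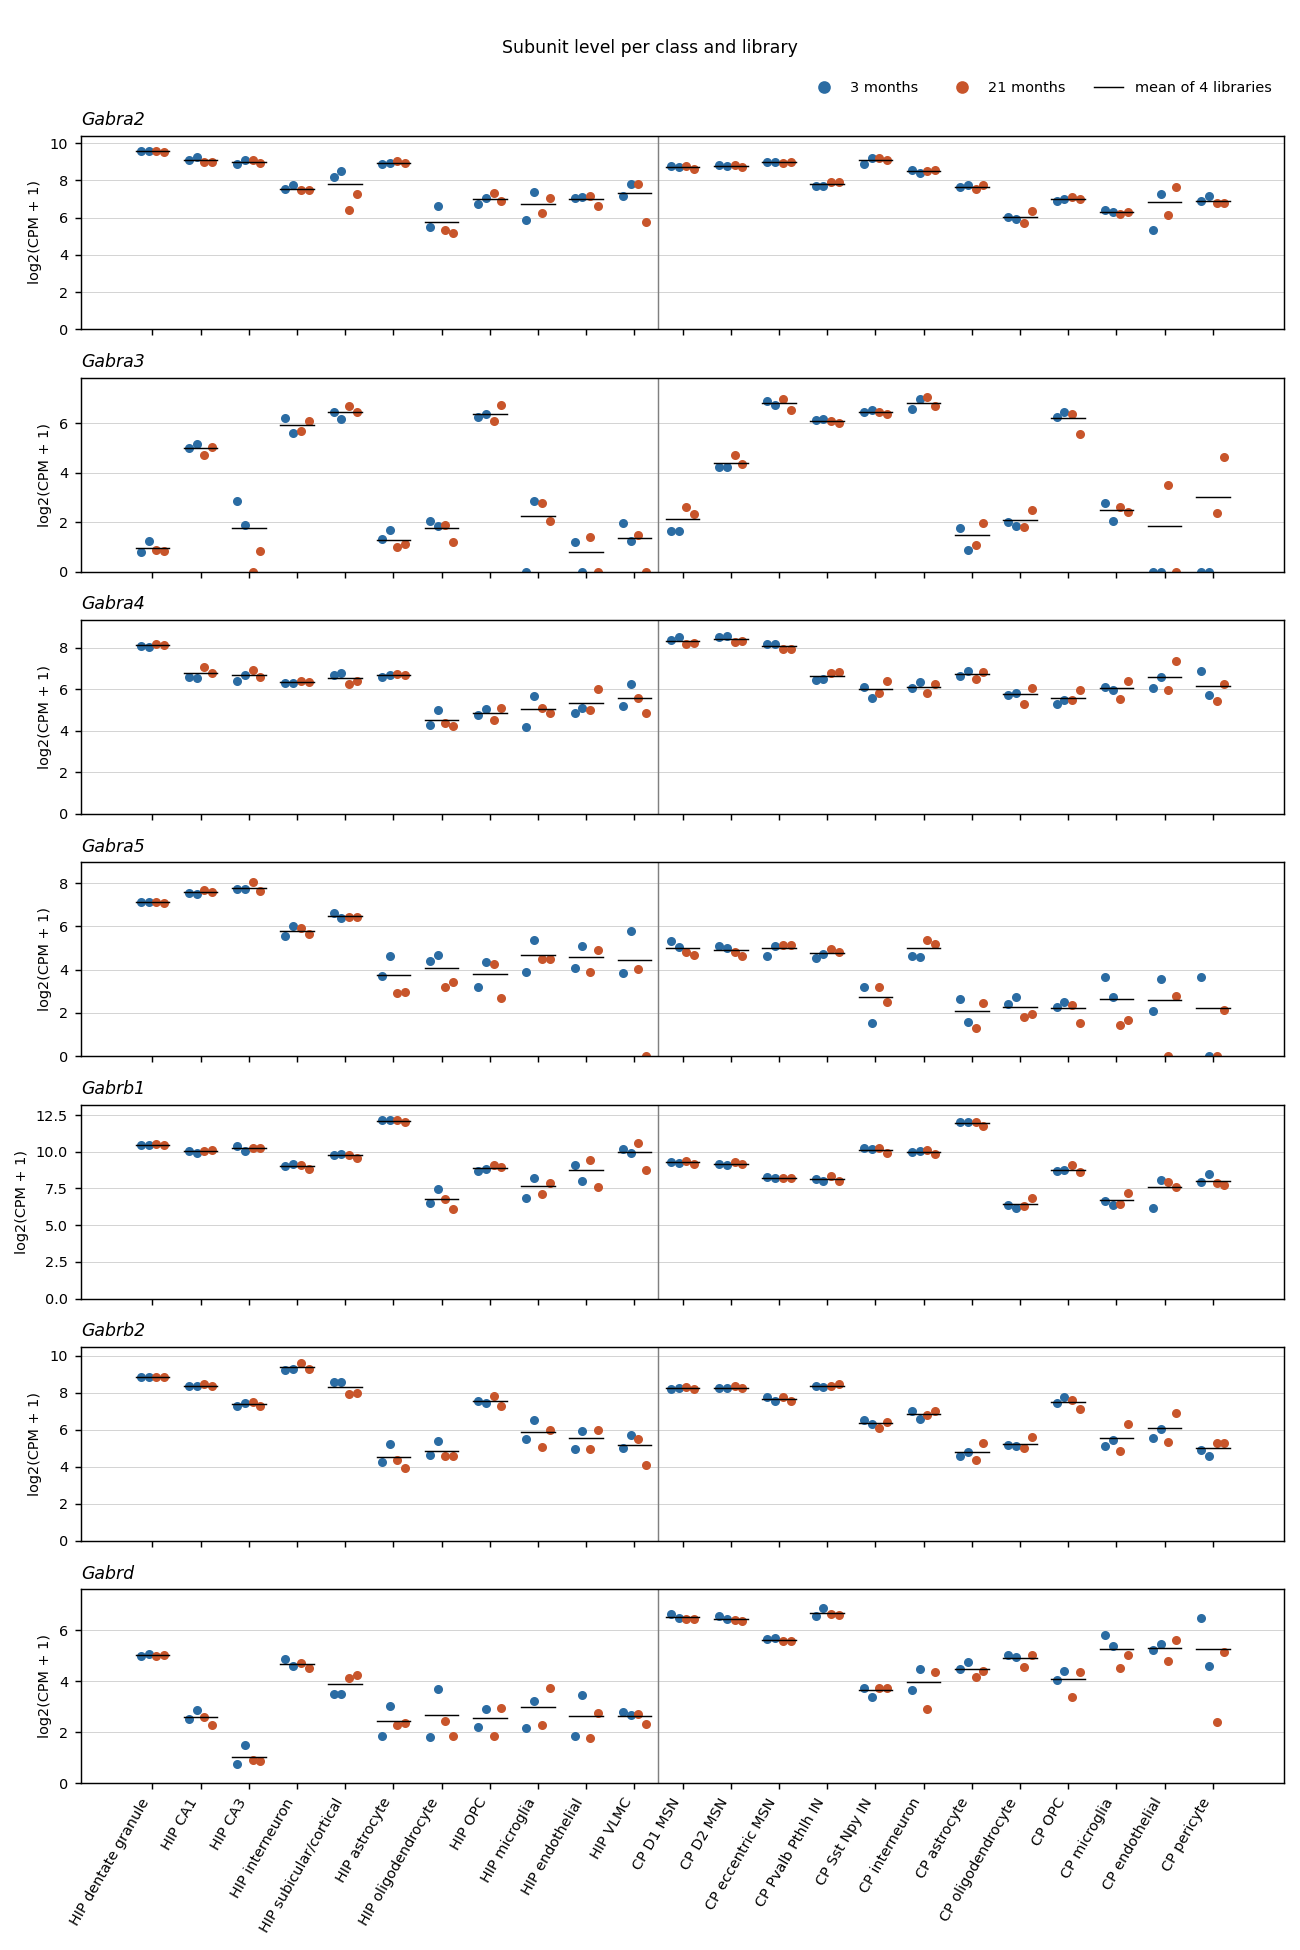
Level of each subunit gene (log2 of CPM + 1) in every tested class; blue points are young libraries, orange points old libraries, black lines the mean of 4 libraries, and the vertical line separates the hippocampus (HIP) from the caudate putamen (CP). Gabra3 spans from near 0 in dentate granule neurons to 113 CPM in caudate putamen interneurons, and Gabrb1 is highest in astrocytes of both regions.

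Per kb of gene span, the order of genes within a class could be read. In astrocytes Gabrb1 led, with a mean of 9.05 CPM per kb in the hippocampus and 8.13 CPM per kb in the caudate putamen. Gabrd, at 13.1 kb the shortest member, led in D1 (6.82 CPM per kb) and D2 medium spiny neurons (6.52 CPM per kb) and in Pvalb Pthlh interneurons (7.62 CPM per kb). It also led in eccentric medium spiny neurons (3.66 CPM per kb, against 3.58 for Gabra2). In the caudate putamen it led as well in oligodendrocytes (2.2), precursor cells (1.23), microglia (2.84), endothelial cells (2.9) and pericytes (2.82 CPM per kb). Dentate granule neurons had 2.39 CPM per kb of Gabrd. Gabra2 reached 5.42 CPM per kb in dentate granule neurons, Gabra4 3.85 CPM per kb in D2 medium spiny neurons, Gabrb2 3.16 CPM per kb in hippocampal interneurons and Gabra5 2.15 CPM per kb in CA3 neurons. Gabra3 stayed at or below 0.506 CPM per kb in all tested classes. The span divides by intron and exon length together, so a gene counted mainly in exons is placed too high by this measure when its introns are short.

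**Figure D2:**
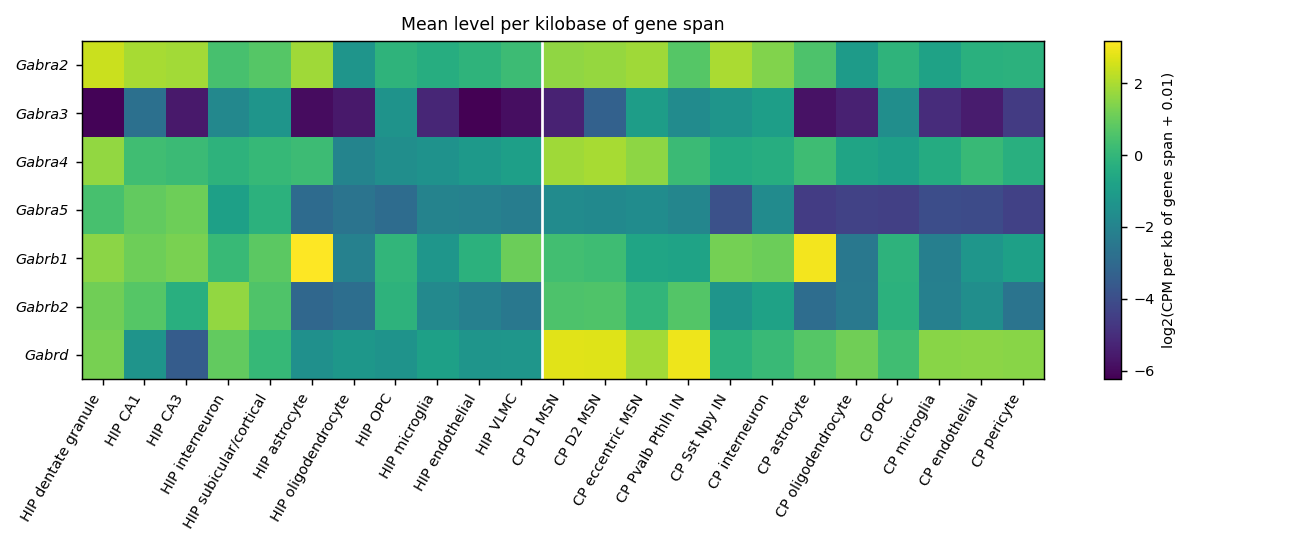
Mean level per kb of gene span of the 7 subunit genes in each tested class, as log2 of CPM per kb with a pseudocount of 0.01. Gabrb1 is the top gene in astrocytes of both regions, at 9.05 and 8.13 CPM per kb. Gabrd is the top gene in every tested class of the caudate putamen except astrocytes, Sst Npy interneurons and the remaining interneurons.

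The hippocampal neuron classes were then compared in 1 fit with the library as a block, with edgeR's quasi-likelihood test and Benjamini-Hochberg adjustment over all 14587 genes; fold changes are log2 values relative to the fit's TMM scaling, with their SE, and a gene is called at an adjusted p under 0.05. Of 28 tests of members, 23 were called, against 53.7% of all gene tests in these comparisons. On the CPM scale the median of all genes is moved by -0.12 for CA1 and -0.21 for CA3 against dentate granule neurons, which turned the direction of no called member. The share of all genes called was 56.4% for CA1, 55.2% for CA3 and 62.3% for interneurons, each against dentate granule neurons, and 40.9% for CA3 against CA1.

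Compared with dentate granule neurons, CA1 neurons had less Gabrd (-2.47 ± 0.12, adjusted p = 6.69e-15) and Gabra4 (-1.27 ± 0.11, 5.12e-09), the partners of tonic receptors, and more Gabra5 (0.58 ± 0.08, 1.3e-06) and Gabra3 (5.02 ± 0.27, 1.31e-09). Gabrb1 (-0.32 ± 0.08, adjusted p = 0.00221) and Gabrb2 (-0.36 ± 0.12, 0.0176) were slightly lower, and the Gabrb2 call was lost without young library 1 or old library 2, with an adjusted p up to 0.0558. All 6 called members differed in the same direction in 4 of 4 libraries. Gabra2 (-0.38 ± 0.25, adjusted p = 0.211) was not called.

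CA3 neurons differed from dentate granule neurons in the same genes of tonic receptors, with Gabrd lower by more (-4.57 ± 0.20, adjusted p = 2.34e-15, from 3, 13, 2 and 4 UMIs in CA3 neurons), Gabra4 lower (-1.28 ± 0.11, 8.39e-09) and Gabra5 higher (0.86 ± 0.08, 2.83e-09). Gabrb2 was lower too (-1.29 ± 0.13, adjusted p = 6.43e-08). Gabra3 passed at 1.58 ± 0.61 (adjusted p = 0.0421) in 3 of 4 libraries, from 28, 19, 0 and 4 UMIs in CA3 neurons. It lost its call under 7 of 13 alternatives and shrank to 0.70 (adjusted p = 0.444) without young library 1. Set against CA1 directly, CA3 neurons had less Gabrd (-2.09 ± 0.28, adjusted p = 1.58e-06), Gabrb2 (-0.93 ± 0.13, 7.25e-06) and Gabra3 (-3.45 ± 0.40, 8.29e-06) and slightly more Gabrb1 (0.27 ± 0.08, 0.0125) and Gabra5 (0.29 ± 0.08, 0.00703). The Gabrb1 call was lost with thinned sums (0.137) or without young library 1 (0.142), and the Gabra5 call with doublets retained (0.059) or thinned sums (0.0592).

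Hippocampal interneurons, which release GABA themselves, had all 7 members called against dentate granule neurons. Gabra2 (-2.05 ± 0.26, adjusted p = 1.37e-05), Gabra4 (-1.84 ± 0.11, 6.09e-11), Gabrb1 (-1.48 ± 0.09, 3.36e-13), Gabra5 (-1.34 ± 0.09, 4.89e-12) and Gabrd (-0.42 ± 0.11, 0.00225) were lower, the Gabrd call being lost with DESeq2 (0.0528) and with thinned sums (0.281). Gabra3 was higher (5.80 ± 0.29, adjusted p = 3.8e-10), and so was Gabrb2 (0.47 ± 0.12, 0.0024), which fell to 0.02 (adjusted p = 0.912) once a trend of each library with gene length was removed.

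In the caudate putamen, D1 medium spiny neurons served as the reference for 5 other classes, in 1 fit over 13320 genes. Members were called in 23 of 35 tests, against 45.4% of all gene tests in these comparisons. With doublets retained, the eccentric and remaining interneuron classes were not formed, and 13 of 21 tests were called where 11 of the same 21 are called here. The share of all genes called was 17.3% for D2, 39% for eccentric, 63.7% for Pvalb Pthlh, 52.7% for Sst Npy and 54.4% for the remaining interneurons. On the CPM scale the median of all genes is moved by 0.18, 0.30 and 0.34 for these 3 interneuron classes in that order; no called member changes direction, but the values move by about as much.

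D2 and D1 medium spiny neurons, the indirect and direct output pathways of the striatum, had 1 member called, Gabra3. Gabra3 was 6.29-fold higher in D2 medium spiny neurons (log2 2.65 ± 0.16, adjusted p = 9.48e-10, higher in 4 of 4 libraries). The other 6 members lay between -0.07 and 0.13 on the log2 scale and were not called. D2-type markers were present in the D1 class at a summed level of 90.7, 97.7, 70.9 and 93 CPM, against 1137, 1200, 1124 and 1217 CPM in the D2 class.

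Eccentric medium spiny neurons had far more Gabra3 than D1 medium spiny neurons (5.07 ± 0.17, adjusted p = 1.08e-13) and less Gabrb1 (-1.10 ± 0.06, 1.05e-17), Gabrd (-0.95 ± 0.08, 5.08e-13), Gabrb2 (-0.63 ± 0.06, 1.49e-10) and Gabra4 (-0.31 ± 0.09, 0.0101). Gabra2 was higher by 0.18 ± 0.06 (adjusted p = 0.0166), a call lost under 6 of 12 alternatives, and at a Leiden resolution of 0.5 the calls of Gabra4 (0.215) and Gabrb2 (0.0628) were lost. Gabra5 was not called.

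The interneurons of the caudate putamen had more Gabra3 and less Gabra4 than D1 medium spiny neurons in each of 3 tested classes, which were not tested against one another. Pvalb Pthlh interneurons had more Gabra3 (4.21 ± 0.23, adjusted p = 2.91e-11) and less Gabra4 (-1.87 ± 0.11, 5.8e-13), Gabrb1 (-1.33 ± 0.06, 3.01e-20) and Gabra2 (-1.11 ± 0.07, 1.82e-17), while Gabrd was not called (-0.02 ± 0.08, 0.947). The Gabrb1 difference kept its direction and its call but shrank to -0.34 with doublets retained and to -0.45 at a Leiden resolution of 0.5. Sst Npy interneurons had more Gabra3 (4.45 ± 0.27, adjusted p = 2.54e-10) and Gabrb1 (0.54 ± 0.06, 8.94e-10) and less Gabrd (-3.29 ± 0.16, 6.34e-20), Gabra5 (-2.84 ± 0.39, 4.03e-06), Gabra4 (-2.65 ± 0.14, 7.12e-14) and Gabrb2 (-2.22 ± 0.09, 1.88e-22). The remaining interneurons had more Gabra3 (4.79 ± 0.25, adjusted p = 2.2e-11) and Gabrb1 (0.39 ± 0.06, 6.63e-07) and less Gabrd (-2.96 ± 0.15, 1.74e-19), Gabra4 (-2.56 ± 0.13, 8.53e-14), Gabrb2 (-1.73 ± 0.08, 3.47e-20) and Gabra2 (-0.58 ± 0.07, 1.79e-09). These 5 comparisons share the D1 libraries. Cholinergic interneurons had 19 nuclei in 1 library and were not tested; their Gabra3 was 86.7, 89.3, 97.8 and 84.3 CPM and their Gabrb1 1258, 1253, 1266 and 1149 CPM.

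Other subunits of the family also differed between classes. Of the 12, 5 could be tested between neuron classes. Gabrg3, a gamma subunit gene, was higher in hippocampal interneurons than in dentate granule neurons (4.21 ± 0.41, adjusted p = 8.88e-07), at 2422, 2771, 3443 and 2664 CPM against 144, 131, 158 and 167 CPM in dentate granule neurons. Gabrg1 stood out in Sst Npy interneurons, at 54.8, 111, 92.4 and 89.1 CPM, 5.27 ± 0.32 above D1 medium spiny neurons (adjusted p = 1.51e-10), and in astrocytes, at 91.3, 89.5, 113 and 103 CPM in the hippocampus. For interneurons against dentate granule neurons 3 of the 5 were higher and 2 lower, where 62.3% of all genes were called (median 0.98, all genes -0.01). For Sst Npy interneurons against D1 medium spiny neurons 1 was higher and 4 lower, where 52.7% of all genes were called (median -1.34, all genes -0.03).

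Genes that hold or move the receptor were called in both directions between classes, in shares to be read against those of all genes in the same comparison. Of 17 genes for postsynaptic scaffolds and receptor partners, 8 were higher and 4 lower in CA1 than in dentate granule neurons (56.4% of all genes called; median 0.12, all genes -0.01), led by Insyn2a (3.84 ± 0.36, adjusted p = 1.09e-07) and by Dmd, the dystrophin gene (2.29 ± 0.08, 2.79e-17). For D2 against D1 medium spiny neurons 5 were higher and 3 lower (17.3% of all genes called; median 0.05, all genes 0.00), with Insyn2a at 1.53 ± 0.09 (adjusted p = 5.68e-16) and Iqsec3 at -0.47 ± 0.06 (4.18e-07). Of 12 receptor trafficking genes, 7 were higher and 4 lower in Pvalb Pthlh interneurons than in D1 medium spiny neurons (63.7% of all genes called; median 0.18, all genes -0.01), Plcl1, which binds receptor subunits, by 2.92 ± 0.10 (adjusted p = 1.49e-17). Among genes for GABA uptake, breakdown and chloride transport, 7 could be tested and 4 were higher and 2 lower in hippocampal interneurons than in dentate granule neurons (62.3% of all genes called; median 0.43, all genes -0.01), with the GABA-degrading enzyme Abat at 3.00 ± 0.09 (adjusted p = 4.05e-18). Of 8 genes for GABA-B receptors and partners, 1 was higher and 5 lower in CA3 than in dentate granule neurons (55.2% of all genes called; median -0.55, all genes -0.02).

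Glial and vascular classes held member RNA at very different levels, which are read beside those of 12 genes of neurons. These 12 genes had summed levels of 4.73% to 19.8% of the neuron level in the glial classes, and up to 40.9% in caudate putamen endothelial cells. The neuron level pools the UMIs of all tested neuron classes of a region in a library. In the hippocampus most of these UMIs came from dentate granule neurons, where Gabra3 was near 0. Single genes among the 12 reached more, up to 79.5% in astrocytes and 144% in oligodendrocyte precursor cells of the hippocampus and 67.6% and 59.4% in those of the caudate putamen, so of the values that follow, only astrocyte Gabrb1 and precursor Gabra3 lie above every one of the 12 in both regions. Astrocyte Gabrb1 was 326% to 357% of the neuron level in the hippocampus and 613% to 728% in the caudate putamen. Astrocyte Gabra2 was 70.3% to 77.6% and 41.1% to 52.1% of the neuron level in the same regions, and astrocyte Gabra4 41.1% to 47.2% and 29.3% to 38.3%. Gabra3 of oligodendrocyte precursor cells was 467% to 1351% of this pooled neuron level in the hippocampus and 304% to 618% in the caudate putamen. In CPM, hippocampal precursor cells overlapped the interneurons and the subicular or cortical excitatory neurons. Those of the caudate putamen overlapped Pvalb Pthlh and Sst Npy interneurons. Gabrb2 of the precursor cells was 36.9% to 49.3% and 48% to 73.9% of the neuron level in the same regions. In oligodendrocytes the summed level of the 7 members had the lowest mean of the hippocampal classes, at 158 to 383 CPM. This range overlapped those of microglia (251 to 655 CPM) and macrophages (219 to 539 CPM). Hippocampal astrocytes had 4804 to 5207 CPM, of which most was Gabrb1 (mean 4442 CPM).

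**Figure D3:**
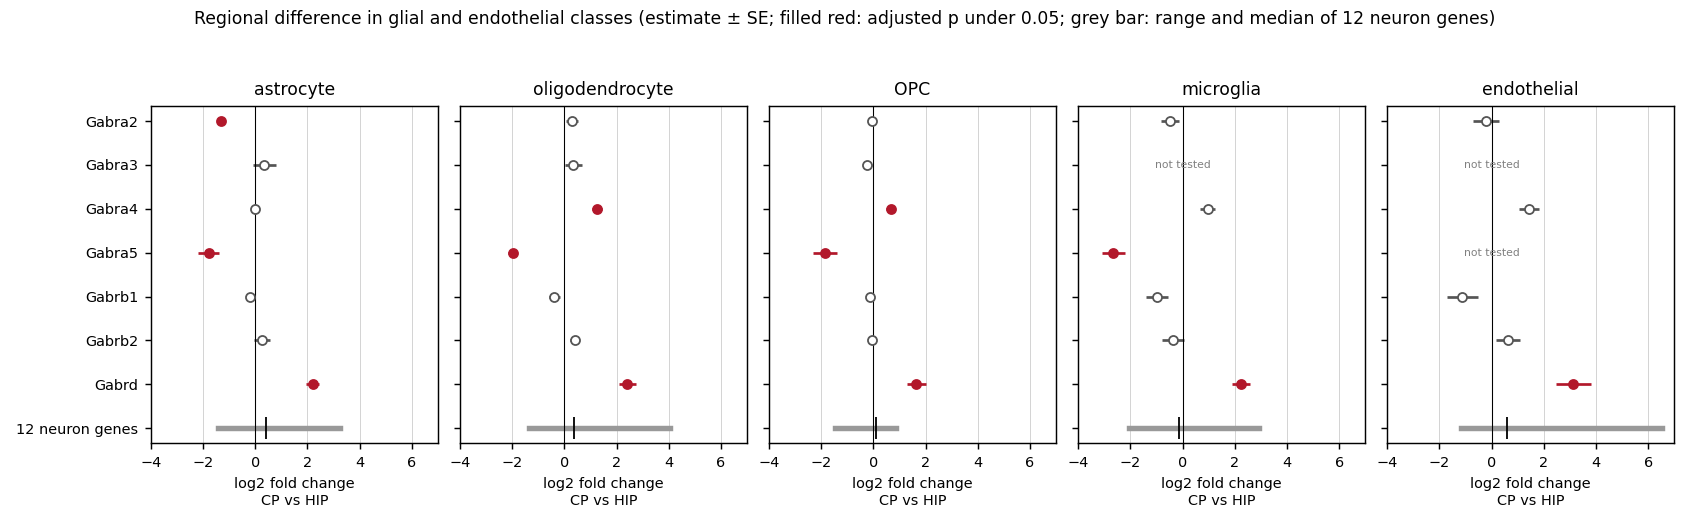
Regional difference of each subunit gene (log2 fold change of caudate putamen over hippocampus, estimate ± SE, filled red where the adjusted p is under 0.05) in 5 classes present in both regions; the grey bar gives the range and the black tick the median of 12 neuron genes. Gabrd is higher in the caudate putamen in all 5 classes and Gabra5 lower in 4.

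Glia and endothelial cells present in both regions allowed the caudate putamen and the hippocampus to be compared within a class. Members were called in 12 of 32 tests, against 10.8% of all gene tests, with 21.1% of genes called in astrocytes, 12.9% in oligodendrocytes, 5.16% in oligodendrocyte precursor cells, 5.21% in microglia and 1.62% in endothelial cells. Gabra2 was lower in 1 class: caudate putamen astrocytes had 201, 213, 181 and 211 CPM where hippocampal astrocytes had 472, 487, 523 and 482 CPM (-1.30 ± 0.07, adjusted p = 1.26e-07). All 4 hippocampal values were above all caudate putamen values. In the same astrocytes Gabrb1 (-0.18 ± 0.08, adjusted p = 0.141) and Gabra4 (0.01 ± 0.09, 0.948) were not called.

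Gabrd was higher in the caudate putamen in all 5 classes. Astrocytes had 2.6, 7.14, 3.91 and 4.18 CPM in the hippocampus and 21.4, 26.1, 16.7 and 20.1 CPM in the caudate putamen (2.21 ± 0.25, adjusted p = 0.000114). The differences were 2.41 ± 0.32 in oligodendrocytes (adjusted p = 0.00155), 1.65 ± 0.36 in oligodendrocyte precursor cells (0.00242), 2.23 ± 0.35 in microglia (0.000714) and 3.13 ± 0.66 in endothelial cells (0.0365). In each class the 4 libraries of the caudate putamen lay above all 4 of the hippocampus. However, in precursor cells, microglia and endothelial cells Gabrd passed the filter on low counts through caudate putamen libraries alone. The lack of overlap in these classes is therefore not separate support for a difference. Hippocampal precursor cells had 4, 11, 2 and 6 Gabrd UMIs and hippocampal microglia 2, 8, 2 and 8. The precursor call was lost with DESeq2 (0.0723), thinned sums (0.0506), the replicate block (0.116) and without old library 2 of the caudate putamen. With the replicate block crossed between ages, the calls in precursor cells (0.104), microglia (0.068) and endothelial cells (0.978) were lost. The endothelial call rested on 1 to 5 UMIs per hippocampal library and was lost without young library 1 or old library 1 of the hippocampus or library 2 of either age of the caudate putamen, with an adjusted p up to 0.232, and at a Leiden resolution of 0.5 (0.0536). Gabrd in D1, D2 and eccentric medium spiny neurons and Pvalb Pthlh interneurons, but not in the other interneurons of the caudate putamen, lay above that of the tested hippocampal neurons as well. The glial Gabrd levels were, at their medians, 20.1% to 43.3% of the neuron level in the caudate putamen and 14.1% to 23.6% in the hippocampus.

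Gabra5 went the other way and was lower in the caudate putamen in 4 classes. The differences were -1.78 ± 0.40 in astrocytes (adjusted p = 0.0155), -1.97 ± 0.17 in oligodendrocytes (2.41e-05), -1.85 ± 0.46 in oligodendrocyte precursor cells (0.00758) and -2.65 ± 0.45 in microglia (0.0014), and the astrocyte call was lost without old hippocampal library 1 (0.0695). The precursor call was lost with DESeq2 (0.0922), thinned sums (0.133) and without young library 2 (0.161) or old library 1 (0.271) of the hippocampus or old library 2 of the caudate putamen (0.0505). These losses do not include those under a replicate block, where the Gabra5 calls in astrocytes, precursor cells and microglia were all lost. Hippocampal oligodendrocytes had 20.2, 24.8, 8.16 and 9.87 CPM and caudate putamen oligodendrocytes 4.41, 5.65, 2.48 and 2.91 CPM. Gabra5 counts in the caudate putamen were low, at 24, 7, 9 and 20 UMIs in astrocytes. They were 4, 9, 4 and 2 UMIs in precursor cells and 8, 11, 2 and 2 UMIs in microglia. In the latter 2 classes Gabra5 passed the filter on low counts through hippocampal libraries alone. Gabra4 was higher in caudate putamen oligodendrocytes (1.26 ± 0.20, adjusted p = 0.00398), a call lost at Leiden resolutions of 0.5 and 2.0 with a value of 0.52, and in oligodendrocyte precursor cells (0.66 ± 0.18, 0.0238). The precursor call was lost with DESeq2 (0.321), thinned sums (0.148) and without young library 1 or old library 1 of the hippocampus or library 2 of either age of the caudate putamen (up to 0.221).

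In the most abundant projection neurons, Gabra5 had a mean of 137 CPM in dentate granule and 30.9 CPM in D1 medium spiny neurons, and Gabrd 31.4 and 89.6 CPM (4 libraries each). The 12 neuron genes, over the same tests in glia, ranged from -1.44 to 3.25 in astrocytes (median 0.41, 2 higher and 2 lower), from -1.35 to 4.05 in oligodendrocytes (median 0.38, 3 higher and 2 lower), from -1.49 to 0.85 in oligodendrocyte precursor cells (median 0.11, 2 higher and 2 lower), from -2.06 to 2.91 in microglia (median -0.12, 2 higher) and from -1.17 to 6.54 in endothelial cells (median 0.59, 2 higher). Their part in the glial results was not tested.

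Age was compared within each class, 21 months over 3 months. In the hippocampus 3 of 71 tests of members were called, against 1.09% of all gene tests, and in the caudate putamen 2 of 76, against 1.04%. With glia averaged over both regions, 1 of 32 was called, against 2.91%. Most members in most classes therefore showed no called difference. As a guide to what 2 against 2 libraries can find in 1 large class, counts were simulated for D1 medium spiny neurons. The fit recovered 1.49% of genes changed by 0.5 on the log2 scale, 74.6% changed by 1 and 92.4% changed by 2. Of its calls, 20.6% were false, where 67, 67 and 66 of 18402 genes had been changed by these sizes. These shares do not carry over to smaller classes or to glia fitted over both regions.

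**Figure D4:**
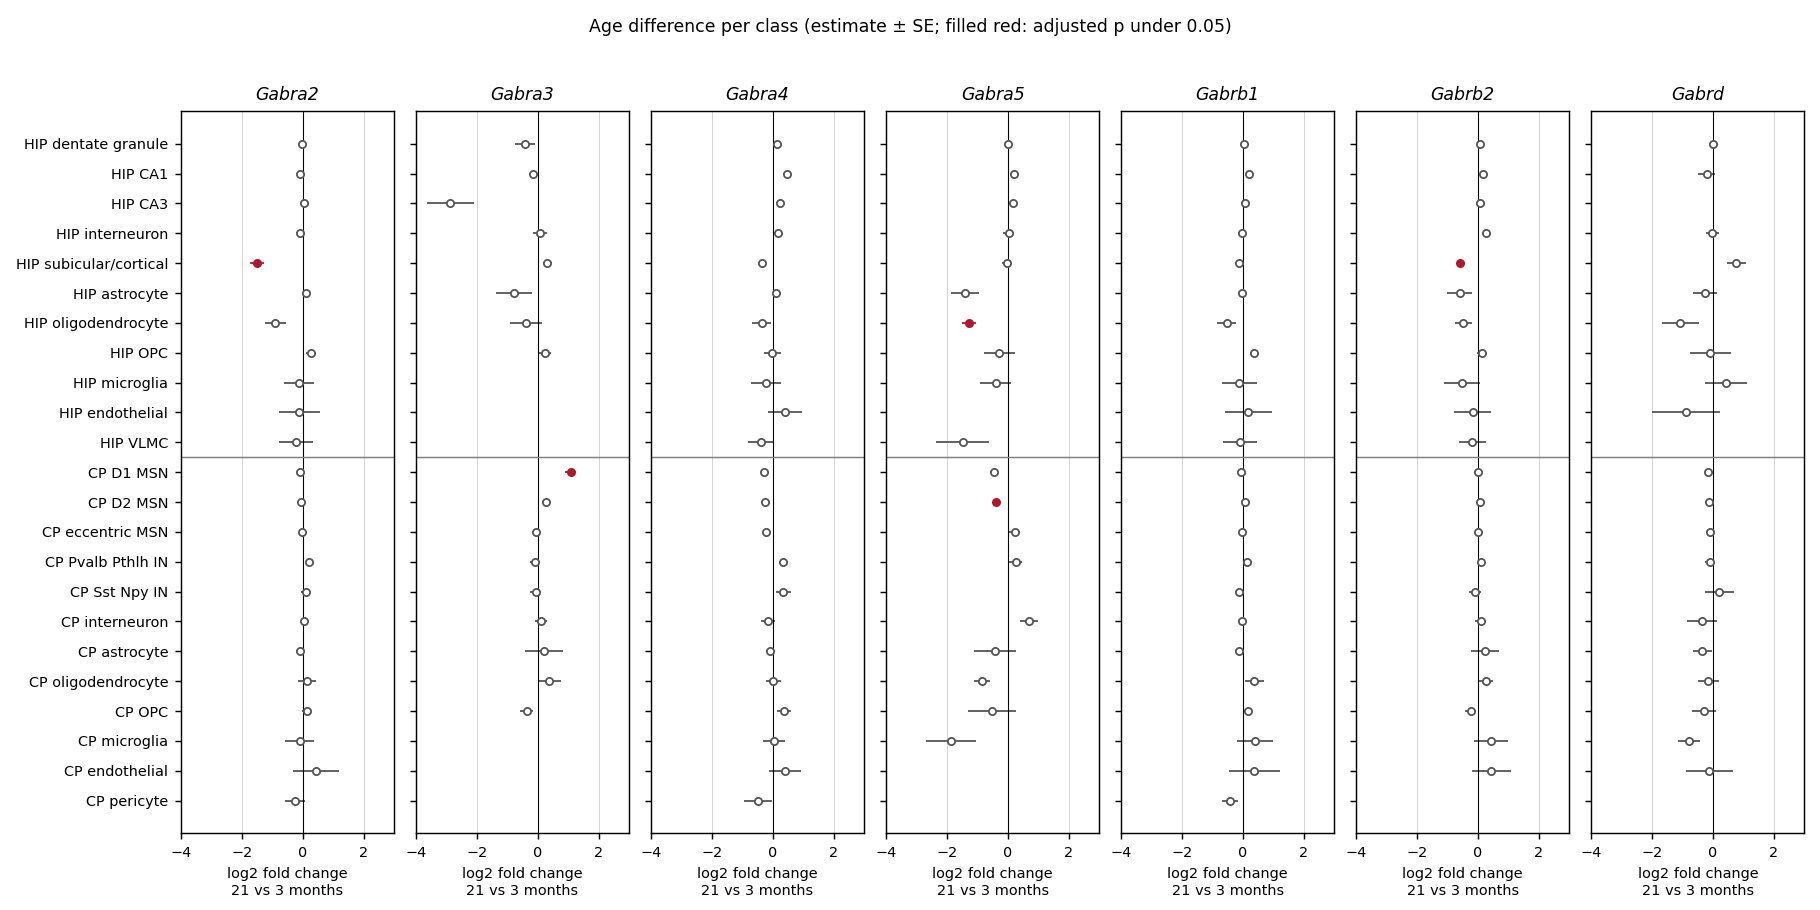
Age difference of each subunit gene (log2 fold change of 21 over 3 months, estimate ± SE) in every tested class of the hippocampus (HIP) and the caudate putamen (CP), filled red where the adjusted p is under 0.05. The called points are Gabra2 and Gabrb2 in subicular or cortical excitatory neurons, Gabra5 in hippocampal oligodendrocytes and D2 medium spiny neurons, and Gabra3 in D1 medium spiny neurons.

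Gabra3 was higher in old D1 medium spiny neurons. The class had 2.1 and 2.13 CPM in young and 5.05 and 4.08 CPM in old libraries, from 121, 178, 260 and 226 UMIs, and both old values lay above both young values (1.08 ± 0.17, adjusted p = 0.0402, against 1.3% of genes called in this class). The direction held without each library in turn, at 0.91 to 1.23, but the call did not. The call was also lost with the replicate block crossed between ages (1.08, adjusted p = 0.323). D2 medium spiny neurons, at 18 and 18 CPM in young and 25 and 19.3 CPM in old libraries, were not called (0.27 ± 0.13, adjusted p = 0.248). These levels are low in D1 neurons, where they stand beside classes with far more Gabra3: eccentric markers summed to 20, 9.02, 16 and 10.2 CPM in the D1 class with 0 of 5 called by age, D2 markers to 90.7, 97.7, 70.9 and 93 CPM with 1 of 6 called (Gpr6, lower by age at -0.81) and cholinergic markers to 7.06, 7.29, 9.14 and 16.1 CPM with 0 of 2 called. In the Sst Npy list, Nos1 was called at 1.30 while the list summed to 15.3, 13.2, 14.4 and 16.9 CPM. No marker of these lists was at 0 in all libraries, and their part in the Gabra3 difference was not tested.

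In CPM, mean Gabra3 rose from 2.12 to 4.56 in D1 and from 18 to 22.1 in D2 medium spiny neurons, so the rise was not smaller in D2. On the log2 scale, as a ratio from a low D1 level, the age difference was smaller in D2 than in D1 when the difference itself was tested (-0.81 ± 0.13, adjusted p = 0.00238). Of the 21 such tests of members, over D2 against D1 and CA1 and CA3 against dentate granule neurons, it was the 1 called, against 0.355% of all gene tests and 0.0526% for D2 against D1. The call was lost with doublets retained (adjusted p = 0.158), at a Leiden resolution of 0.5 (1), with sums thinned to 1 depth (1) and without young library 2 (0.0748), old library 1 (0.136) or old library 2 (0.507) of the caudate putamen. The value lay between -0.94 and -0.78 under the 16 alternatives run, which included no replicate block for this comparison.

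For Gabra5 and Gabra4, both old libraries lay below both young ones in D1 and in D2 medium spiny neurons, and 1 of these differences was called. The share of all genes ordered by age in this way was not determined. Such an order without a call, here and below, is therefore a description and not a result about these genes. Gabra5 in D2 medium spiny neurons was 33.6 and 31.4 CPM in young and 26.9 and 23.6 CPM in old libraries (-0.38 ± 0.09, adjusted p = 0.0497, against 4.83% of genes called). Its call was lost without young library 1 or 2 or old library 2 and at Leiden resolutions of 0.5 and 2.0 (up to 0.0562). The call was also lost with the replicate block crossed between ages (-0.39, adjusted p = 0.166). Gabra5 in D1 medium spiny neurons (-0.47 ± 0.10, adjusted p = 0.0819), Gabra4 in D1 (-0.29 ± 0.08, 0.138) and Gabra4 in D2 medium spiny neurons (-0.27 ± 0.07, 0.086) were not called. Gabrd was ordered in the same way in both classes (-0.15 in D1 and -0.12 in D2) and was not called either. In eccentric medium spiny neurons Gabrd and Gabra4 (286 and 287 CPM in young, 246 and 243 CPM in old libraries) had this order too. Gabra5 of the eccentric class went the other way, at 23.9 and 33.6 CPM in young and 34.4 and 34.4 CPM in old libraries. No member was called by age in that class. In Pvalb Pthlh interneurons both old libraries lay above both young ones for Gabra4 (0.35 ± 0.13, adjusted p = 0.42) and Gabra5 (0.26 ± 0.22, 0.772), as they did for Gabra5 in the remaining interneurons (0.69 ± 0.29, 0.676), and none of these was called. Replicate 1 and replicate 2 libraries differed within these classes: 1 cluster made up 30.8% to 33.3% of D1 nuclei in libraries numbered 1 and 1.57% to 3.14% in libraries numbered 2, and another 18.5% to 22.1% against 0.737% to 1.89% of D2 nuclei. Leaving both clusters out, an alternative chosen after seeing the data, gave Gabra5 -0.46 (adjusted p = 0.011) in D1 and -0.34 (0.0402) in D2, Gabra4 -0.29 (0.0408) and -0.27 (0.0434), and Gabra3 1.14 (0.00776) in D1 medium spiny neurons. With a replicate block 5 member tests by age were called in the caudate putamen, and with that block crossed between ages 0.

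Gabra5 was lower in old oligodendrocytes of the hippocampus, at 8.16 and 9.87 CPM against 20.2 and 24.8 CPM in young libraries (-1.28 ± 0.23, adjusted p = 0.0286, against 1.04% of genes called). Averaged over both regions it was lower too (-1.07 ± 0.17, adjusted p = 0.00562, against 5.72% of genes called). Both calls were lost at Leiden resolutions of 0.5 and 2.0, and the hippocampal call without young library 2, old library 1 or old library 2 (up to 0.252). All 12 neuron genes also had negative values in old hippocampal oligodendrocytes, from -1.19 to -0.53 (median -0.88); by edgeR 0 of 12 were called and 9 had an unadjusted p under 0.05. Over both regions they lay between -0.51 and -0.13 (median -0.35), with 0 of 12 called by edgeR and 2 under an unadjusted p of 0.05. Their part in the Gabra5 difference was not tested.

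Gabra2 and Gabrb2 were lower in old subicular or cortical excitatory neurons, a class whose make-up differed between the ages. Gabra2 was 290 and 363 CPM in young and 83.8 and 152 CPM in old libraries (-1.50 ± 0.23, adjusted p = 0.0119), and Gabrb2 378 and 384 against 246 and 250 CPM (-0.58 ± 0.12, 0.0304), where 2.21% of genes were called. The Gabrb2 call was lost with DESeq2 (0.0659), thinned sums (0.0828) and without young library 1 or 2 or old library 1 (up to 0.234). The class joined several clusters: cluster 20 held 29.5% to 35.3% of its nuclei in young and 63.4% to 71.6% in old libraries, and cluster 23 held 24.3% to 31% in young and 0% to 2.44% in old libraries. In cluster 20 alone, Gabra2 was 57.7 and 59.3 CPM in young and 62.9 and 38 CPM in old libraries (-0.06, adjusted p = 0.991), and Gabrb2 was 214 and 219 against 219 and 200 CPM (0.01, 0.996). Of the 9 markers of the class 3 were higher and 1 lower with age, among them Rorb (higher, 1.11), and the CA1 marker Spink8 was lower (-7.81).

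**Figure D5:**
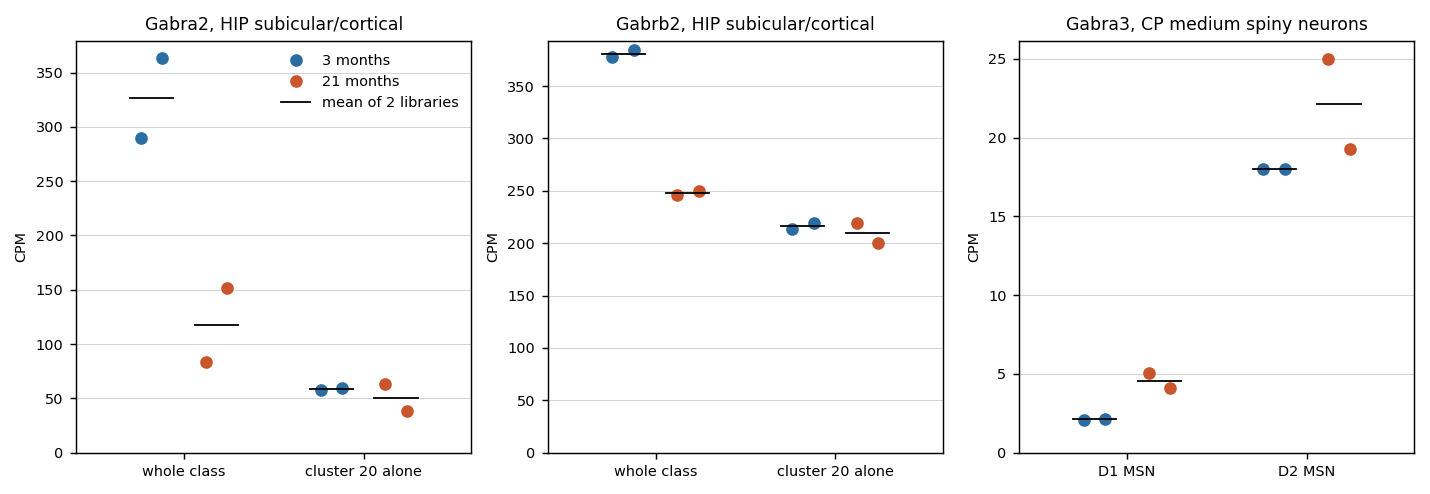
CPM by library (blue young, orange old, black line the mean of 2) for Gabra2 and Gabrb2 in subicular or cortical excitatory neurons, as the whole class and in cluster 20 alone, and for Gabra3 in D1 and D2 medium spiny neurons. The ages separate for the whole class and overlap in cluster 20, while Gabra3 is higher in both old D1 libraries.

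Across regions no member's age difference in glia was called as different between the caudate putamen and the hippocampus, in 32 tests by edgeR, against 0% of all genes, nor by DESeq2 (0); 1 member passed an unadjusted p of 0.05 (Gabra2 in oligodendrocytes, 1.04). Among the other GABA-A subunits, Gabrg3 (0.29 ± 0.07, adjusted p = 0.0488) was higher in old dentate granule neurons, among 2 of 7 tested that were called (median 0.12, all genes -0.01), where 4.06% of all genes were called. In that class 1 cluster held 25.1% to 31.8% of young and 62% to 63.8% of old nuclei. In old D2 medium spiny neurons 0 of the 17 scaffold and partner genes were higher and 2 lower, where 4.83% of all genes were called (median -0.10, all genes 0.00). The 2 were Nlgn2 (-0.50, adjusted p = 0.0165), which recruits receptors to inhibitory synapses, and Slitrk3 (-0.37, 0.0497). In old CA1 neurons the GABA-B partner Kctd8 was higher (1.36, with 0.883% of all genes called), whereas in old dentate granule neurons it was lower (-0.92, adjusted p = 0.0304). Calls of genes other than the members were not checked under the alternatives.

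Genes with a pattern over classes like that of a member were listed by Pearson's r of log2(CPM + 1) over the 29 class means, among 8446 genes; classes of a region share libraries, so r is a description. Of the genes reported here, Gabrb2 was most like Shank2 (0.881) and Stxbp5l (0.873), Gabra5 like the potassium channel subunit Kcnab2 (0.900) and the kinase Camk2a (0.893), and Gabra4 like Celf2 (0.863) and Slc35f3 (0.828). Gabra2 was most like Gm44151 (0.860) and Dclk1 (0.841), Gabra3 like Olfm3 (0.857) and Dpp10 (0.843), Gabrb1 like Fmn2 (0.848) and Acsl6 (0.842), and Gabrd like Sh2d5 (0.819) and Pde1b (0.812). Between members, r was 0.72 for Gabra2 with Gabra4, 0.71 for Gabra2 with Gabrb1 and 0.57 for Gabra4 with Gabrd, and 0.41 for the overlapping neighbours Gabra4 and Gabrb1.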

How the data were processed

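Nuclei of 8 libraries were counted by the authors with Cell Ranger 4.0.0 on mm10, per the submitters' processing notes, while the deposited count matrices name version 6.1.2 for 7 libraries and 7.0.0 for 1 (young caudate putamen 2), per the file headers. Whether introns or strand were counted is not given in the sources used here. Values used are the deposited raw UMI counts per gene and nucleus.

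Nuclei with under 500 genes or over 5% mitochondrial UMIs were dropped, and Scrublet doublets were removed. In young hippocampal library 2 the automatic threshold would have called 71.1%, and the expected share was removed instead. Clusters (scanpy 1.11.5, 3000 variable genes, 40 components, 20 neighbours, Leiden resolution 1.0) were made without the 19 GABA-A genes and named by marker lists; naming rules were settled over several versions, judged on class sizes and markers before any test. Clusters that matched no list were left out. Counts were summed per class and library and tested with edgeR 4.0.16 (quasi-likelihood, TMM, filterByExpr) over all genes, with Benjamini-Hochberg adjustment at 0.05; neuron classes were compared with the library as a block, and glia of both regions were fitted together. Gene spans are GENCODE vM21.

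Every member is named with its levels, with full statistics where it was called, and at most 4 called genes per list by size of change. Some other genes that this rule would name are not reported here. Members, lists and some tests were chosen with earlier results of these data known. Alternatives were DESeq2 1.42.0, no filter on low counts, doublets retained, other Leiden resolutions, a gene-length trend removed, thinned sums, replicate blocks and each library left out; the crossed block and the fit without unequally shared clusters were added after seeing the data. The labels do not name the mice of each library, so p-values measure the spread between these libraries, which may be partly technical. On simulated counts, D1 medium spiny neurons by age gave 29 false calls, 20.6% of all calls made there. Astrocytes by region gave 18 (11.3%) and CA1 against dentate granule neurons 18 (9.78%). Each simulation changed only 66 or 67 genes per size of change, and all other genes had 1 mean over libraries. In the real data 21.1% and 56.4% of genes were called in the latter 2 comparisons. The false shares are therefore not error rates of the calls reported here.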

Additional observations from a re-analysis of the deposited data

Results flagged for a closer look

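The age difference of Gabra3, the gene of the alpha3 subunit, in D2 medium spiny neurons was -0.81 on the log2 scale relative to that in D1 medium spiny neurons by the test of the difference itself (edgeR, adjusted p = 0.00238, SE 0.13). Gabra3 in D1 medium spiny neurons was 2.1 and 2.13 CPM at 3 months and 5.05 and 4.08 CPM at 21 months, and in D2 medium spiny neurons 18, 18, 25 and 19.3 CPM in the same order. The D1 level is low, and in CPM the rise of the mean was not smaller in D2. The call was lost with doublets retained (adjusted p = 0.158), at a Leiden resolution of 0.5 and with thinned sums, among other alternatives.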

How the results depend on the processing

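Members called by age in the hippocampus numbered 3 and became 9 without the filter on low counts, 5 with doublets retained, 5 with the replicate block crossed and 1 with unequally shared clusters left out (1 to 7 without single libraries: 7 without young library 1, 1 without old library 1). There Gabrb2 in subicular or cortical excitatory neurons turned to 0.01. In the caudate putamen the 2 became 4 with DESeq2, 4 without the filter, 5 with doublets retained, 1 at Leiden 0.5, 1 at Leiden 2.0 and 5 without the unequally shared clusters (0 to 2 without single libraries: 1 without caudate putamen old library 1, 0 without each of the other caudate putamen libraries and 2 without each hippocampal one). Same-numbered libraries correlated in their deviations in some classes (0.371 in D1 medium spiny neurons), but with 2 pairs per region this does not show pairing; the replicate block gave 5 calls in the caudate putamen, and the crossed replicate block 0. Over both regions the 1 became 4 without the filter, 0 at Leiden 0.5 and 0 at Leiden 2.0 (1 to 2 without single libraries). Differences of age effects between regions were 0, and 2 without the filter (0 to 0). The 12 regional calls became 9 with the replicate block, which lost Gabra5 in astrocytes (-1.55, adjusted p = 0.108), microglia (-1.75, 0.128) and precursor cells (0.278) and, in the latter, Gabrd (0.116) and Gabra4 (0.297) and added 2 others, and 5 with the crossed replicate block, which lost Gabrd in microglia (0.068), endothelial cells (0.978) and precursor cells (0.104), Gabra4 in precursor cells (0.263) and Gabra5 in astrocytes (-0.86, 0.154), precursor cells (-1.29, 0.507) and microglia (-1.73, 0.362). They were 18 without the filter, 18 with doublets retained and 8 with thinned sums (8 to 17 without single libraries). Calls between classes were 20 to 23 in the hippocampus and 22 to 24 in the caudate putamen without single libraries; with doublets retained 2 of the 5 comparisons of the latter do not exist, and 13 of 21 tests were called against 11 of the same 21. Of differences of age effects between neuron classes, the 1 call (D2 against D1) became 0 with doublets retained, at Leiden 0.5 and with thinned sums (0 to 2 calls over all 21 such tests without single libraries: 2 without young hippocampal library 2, 0 without caudate putamen young library 2, old library 1 or old library 2). Non-overlapping neighbours in the order of levels were 37 to 44 without single libraries, against 36 with all. A range over fewer libraries cannot be wider, so this count does not measure stability. The cause of the other changes was not tested. With a library left out, 1 library stands for its group and is assumed to vary like the rest. DESeq2 kept 60 of the called member results and lost 5, and the gene-length correction kept 64 and lost 1. Low counts limit Gabrd and Gabra3 in CA3 neurons, Gabrd and Gabra5 in precursor cells, microglia and vascular cells, and Gabra3 in D1 medium spiny neurons.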
